A study of Junonia coenia with 38 samples.

Results

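In the developing wings of the buckeye butterfly Junonia coenia, 73 of 19234 gene models had transcripts that were plentiful in the 5th larval instar and in the prepupa and scarce at both later stages, 72 h after pupation and in the late pupa. They were chosen by their levels. Each count was divided by the median-of-ratios size factor of its library, which gives a normalised count, and the normalised counts of the 6 libraries of a stage were averaged. In a member, the lower of the 5th instar and prepupal means was at least 50 and at least 4 times the higher of the 72 h and late pupal means, and the 5th instar and prepupal means lay within 4-fold of each other. The levels by stage are therefore a description and carry no test, while hindwing and forewing within a stage were compared by a test of each model. Since the rule averages both wings, a model could be admitted through the levels of 1 wing, so how many members were called between the wings is a description as well. With the libraries of each wing taken alone, 38 members met the rule in both wings, 30 in hindwings only, 2 in forewings only and 3 in neither.

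Wings were taken whole from caterpillars and pupae kept at about 27 °C, and poly-A RNA was sequenced. Hindwings and forewings were each sampled in 5th instar larvae, in prepupae, 72 h into the pupal stage and late in it, and each of these 8 groups has 3 libraries. The labels give the late stage as 6 days after pupation in one field and as day 7 in another. No strain, sex or treatment is given for these groups, and nothing in the labels says whether the libraries of a group came from separate animals, so the p-values measure the spread between libraries, which may be technical. The table lists models by contig, first and last position with no gene names, on an assembly whose build is not given in the sources used here. A model is written here as contig:first-last, no role can be given to any of them, and the labelled tissue could not be checked against marker genes. Which exons or introns the reads fell in is not known from the table, and no sequence was at hand to be shown.

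Butterfly wings grow inside the caterpillar as epithelial discs. Around pupation, under pulses of the moulting hormone ecdysone, the discs turn out, spread and lay down the pupal cuticle. In the pupa scale cells differentiate and later fill with pigment. Hindwing and forewing pass through these steps together and differ in shape and pattern under the control of the selector gene Ultrabithorax, which acts in the hindwing. In whole wings, fewer cells of a type and less RNA per cell cannot be told apart.

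Total counts per library lay between 5795618 and 21284939. Size factors divided by total counts, in units of 1e-06, ran from 0.160 to 0.174 in 5th instar libraries, 0.0469 to 0.0872 in prepupal, 0.0641 to 0.0959 in 72 h and 0.0752 to 0.0846 in late pupal ones, so a normalised count stands for a different share of a library at each stage. In the prepupa they ran from 0.0707 to 0.0872 in hindwings and 0.0469 to 0.0534 in forewings, so this share also differed between the wings. Wing differences were not tested with library totals. Members held 1.39% to 1.84% of all counts in 5th instar libraries, 0.317% to 0.962% in prepupal, 0.0206% to 0.0596% in 72 h and 0.0313% to 0.0433% in late pupal libraries. With library totals in place of size factors, an alternative added after the data were seen, 39 of the 73 still met the rule. The ratio of the lower mean before to the higher mean after pupation remained above 1 in all 73 under that scaling, and at least 4 in 63, while 28 had 5th instar and prepupal means more than 4-fold apart.

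The members ranged widely in level and in how much was left after pupation. The median over the 73 members was 259 normalised counts in 5th instar wings, 272 in prepupal wings and 19.1 in wings of both pupal stages. The higher of the means after pupation was 15.1% of the lower mean before it in the median member, and ran from 0.533% to 24.3%. A ratio of before to after of at least 10 was reached by 24 members and of at least 20 by 13, while 21 lay under 5. In 58 members all 12 libraries before pupation stood above all 12 after it, which was so in 3.56% of the 13282 models with enough counts to be tested and in 6.08% of the 6484 that met the level and balance conditions alone. That share uses the contrast by which members were chosen and is given as background. At least 1 library after pupation held no count in 21 members.

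**Figure D1:**
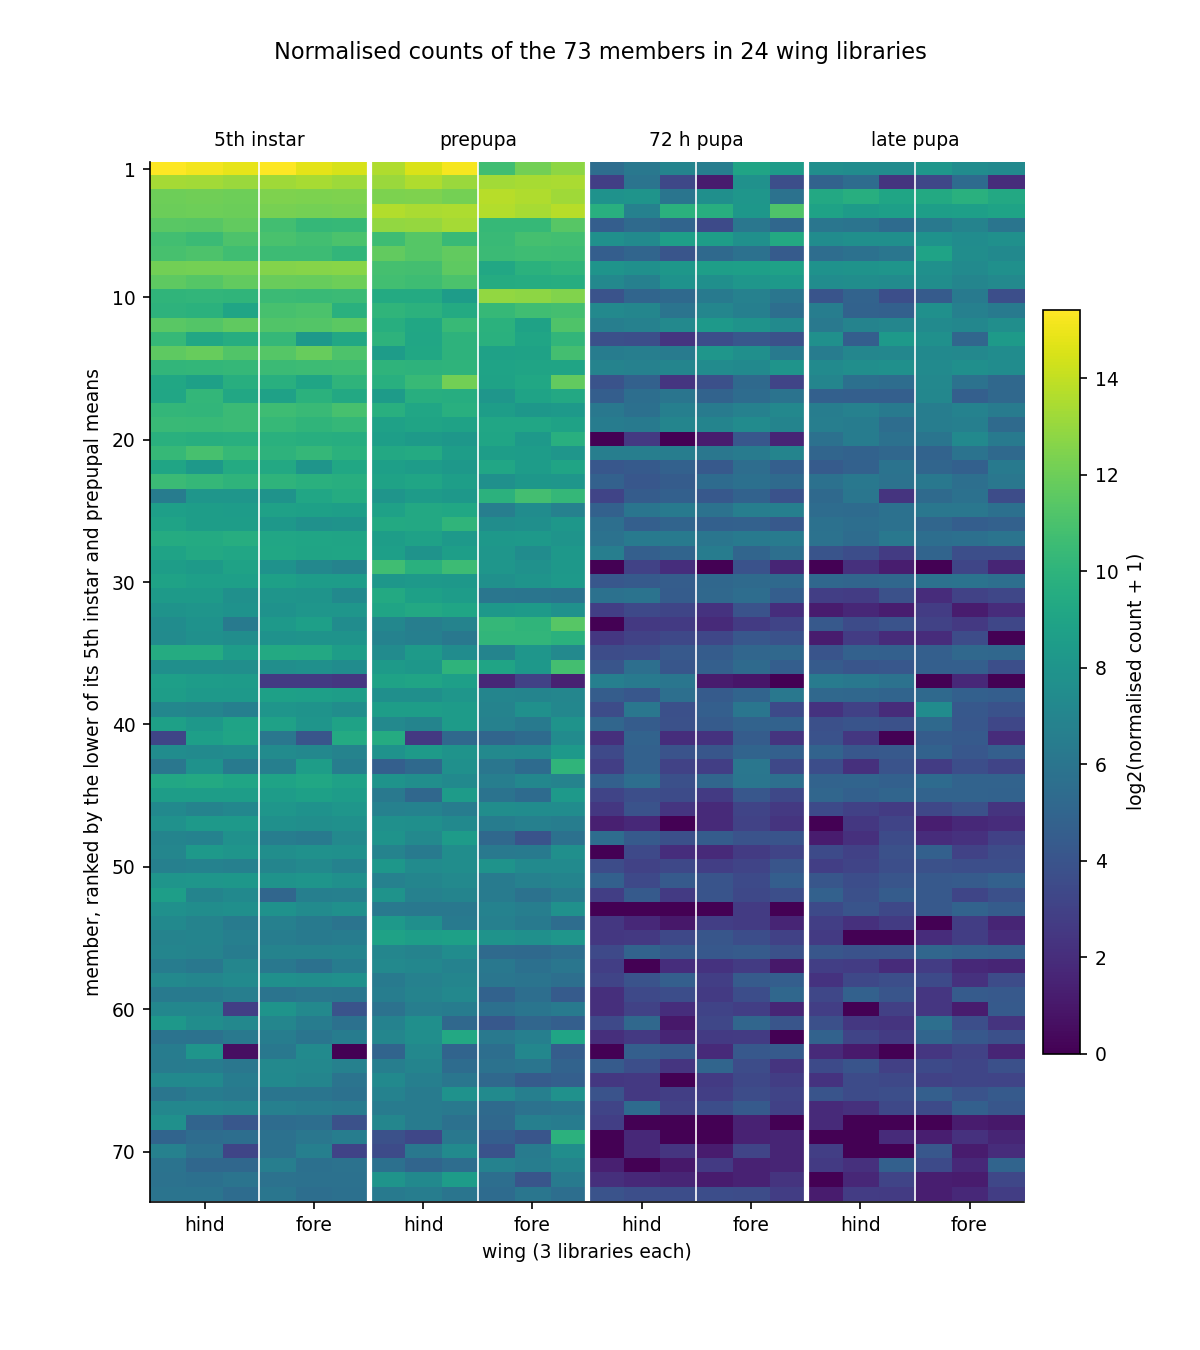
Normalised counts of the 73 members (rows, ranked by the lower of the 5th instar and prepupal means) in the 24 wing libraries (columns, by stage, hindwing left of forewing), as log2(normalised count + 1). All rows are brighter in the left 12 columns than in the right 12 on average, as the rule requires, and rows differ in whether the prepupa is brighter in hindwing or in forewing.

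Members were ranked by the lower of their 5th instar and prepupal means, and of the first 6 in that order 2 also had the largest ratios of before to after. Counts are not per length of transcript, so this ranks counts and not molecules, and some models further down had a higher mean at 1 of the stages, such as 000013F:1917634-1922761 with 5449 in the 5th instar. The model 000014F:1675881-1678464 held 43722, 36055 and 29927 normalised counts in 5th instar hindwings and 43554, 28366 and 23218 in 5th instar forewings. Its prepupal values were 12222, 24027 and 38074 in hindwings and 1629.5, 4454 and 7032 in forewings. Its values at 72 h were 44.1, 72.1 and 122 in hindwings and 92.1, 522 and 344 in forewings, and those of the late pupa 196, 180.2 and 172 in hindwings and 272, 176 and 158 in forewings. The 3 prepupal forewings were low beside every other library before pupation, and all 12 libraries after pupation lay below them. This model alone made up 35.3% of the summed member means in 5th instar wings, 17.6% in prepupal, 4.75% in 72 h and 4.53% in late pupal wings.

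The largest ratio of before to after was that of 000003F:5477416-5496176, 187. As normalised counts it was level between the wings and between the early stages. It held 10487, 10131 and 8779 in hindwings and 9649.6, 10578 and 9006 in forewings of the 5th instar. Prepupal values were 8851, 12189.7 and 8610.5 in hindwings and 9896, 10632 and 11124 in forewings. After pupation its libraries varied far more, at 6.30, 60.1 and 9.29 in hindwings and 1.26, 224 and 11.9 in forewings of 72 h pupae, and at 28.1, 42.5 and 4.01 in hindwings and 8.62, 41.3 and 2.96 in forewings in late pupae. The 72 h forewing of replicate 2 held most of what was left, and without that library the ratio was 461. Replicate 2 was also the highest of its group in both wings of both pupal stages.

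Among the other 4 of these 6, 000253F:155248-168969 stood at 4823, 8587, 179 and 693 from the first stage to the last, as means of 6 libraries. The model 000024F:165880-170529 stood at 4405, 12136, 879 and 428 in the same order. Its 72 h libraries ran from 108 to 2310.0 normalised counts, the highest being forewing replicate 3, and the ratio of 5.01 became 8.60 without both 72 h libraries numbered 3. The model 000125F:418638-424639 stood at 2202, 5246, 34.1 and 70.1, and 000202F:26107-38299 at 1884, 1755, 345 and 201. These means pool the wings. The prepupal mean of 000125F:418638-424639 was 8740 in hindwings and 1752 in forewings, and that of 000253F:155248-168969 was 5151.5 and 12023. In 000024F:165880-170529 and 000202F:26107-38299 the prepupal wing means lay closer together. Of the lower mean before pupation, 3.18% was left in 000125F:418638-424639, 19.7% in 000202F:26107-38299 and 19.96% in 000024F:165880-170529.

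The other 4 models among the 6 of largest ratio were close to silent after pupation. The ratio was 65.3 for 000112F:1181871-1184495, 44.99 for 000004F:2889006-2907488, 44.3 for 000001F:1695855-1697274 and 34.3 for 000058F:161059-166706. Over the 6 libraries of a stage they kept 23, 6, 16 and 5 raw counts at 72 h and 13, 4, 16 and 8 late in the pupa, in that order of models. With so few reads left, the ratios rest on small numbers. From the counts alone, the 5th instar rate of 000004F:2889006-2907488 was 45.1 times that at 72 h with a 95% counting interval of 20.6 to 123, and that of 000001F:1695855-1697274 was 75.2 times with an interval of 46.2 to 132. PCR copies are not independent molecules, so these intervals cover counting error only. Without a single library the ratio of 000112F:1181871-1184495 was 110.4 (72 h forewing replicate 2), that of 000004F:2889006-2907488 22.1 (5th instar hindwing replicate 1) or 76.7 (72 h hindwing replicate 1), and that of 000058F:161059-166706 16.5 (prepupal forewing replicate 3). Without both 72 h libraries numbered 3 the ratio of 000004F:2889006-2907488 was 29.9.

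In normalised counts the members did not share a direction before pupation. The prepupal mean was above the 5th instar mean in 33 members and below it in 40, and 42 lay within 2-fold. This split depends on the scaling. Size factors divided by total counts were lower in all prepupal libraries than in any 5th instar library. With library totals the prepupal to 5th instar ratio is therefore lower in every member, and the split was not counted under that scaling. The limit of 4-fold in either direction was set by the rule. At the upper end stood 000110F:1474574-1475320, at 277 in the prepupa and 71.7 in the 5th instar, 000094F:1118847-1131216, at 894 and 232, and 000299F:516417-522539, at 707 and 198. At the lower end stood 000333F:82321-96087, at 786 in the prepupa and 2933 in the 5th instar, 000013F:1917634-1922761, at 1542 and 5449, and 000002F:2534278-2546250, at 157 and 548. The upper end rests partly on replicate 3 of the prepupa. In 000110F:1474574-1475320 it held 618 normalised counts in hindwing and 543 in forewing, against 75.7 to 198 in the other 4 prepupal libraries, and in 000299F:516417-522539 it held 1033 and 1765, against 283 to 519.

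After pupation the remaining levels also went both ways. The late pupal mean exceeded the 72 h mean in 39 members and was below it in 34, by at least 2-fold in 12 and 13. Since the rule caps the higher of both means, these ratios are described and not tested. The members with the highest late pupal over 72 h ratio were 000022F:1419969-1442174, with means of 82.6 in the late pupa and 4.19 at 72 h, 000022F:1404924-1410193, with 17.3 and 0.899, and 000125F:443051-458035, with 189 and 11.7. The model 000125F:443051-458035 held 210.4, 23.0 and 319 in late hindwings and 208, 32.8 and 340.2 in late forewings, so replicate 2 was low in both wings, and 12.6, 12.0 and 4.13 in hindwings and 11.3, 17.1 and 12.9 in forewings at 72 h. The models named here were at their lowest at 72 h and held more again later. Their lower mean before pupation was still 5.49, 6.23 and 4.24 times the late pupal mean, in the order of the ratios above.

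The opposite order was seen in 000663F:59929-61855, with means of 7.42 in the late pupa and 39.1 at 72 h, in 000034F:1194879-1196704, with 2.88 and 14.01, and in 000355F:191473-193397, with 4.80 and 21.1. These were still present at 72 h and lower at the late stage. In 000034F:1194879-1196704 the 5th instar libraries numbered 3 held 0.566 normalised counts in hindwing and 0 in forewing, against 70.7 to 267 in the other 4, so replicate 3 stood near 0 in both wings.

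**Figure D2:**
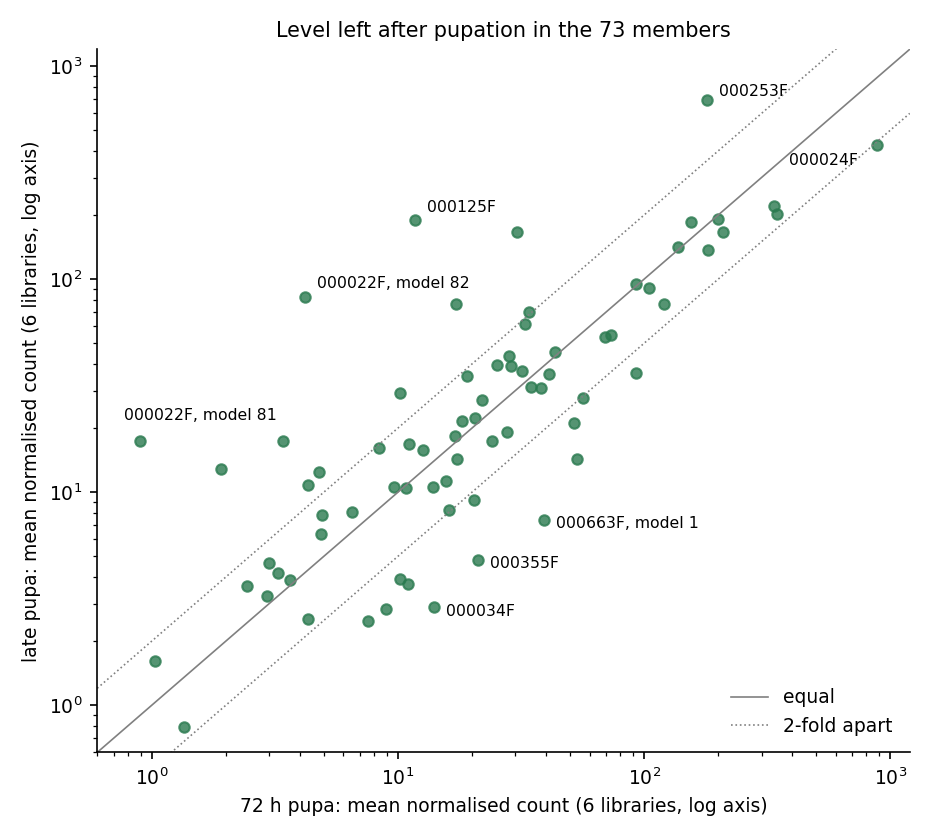
Mean normalised count of each member in the late pupa (vertical, log axis) against 72 h after pupation (horizontal, log axis), each over 6 libraries, with lines for equal levels and for 2-fold differences. Models 81 and 82 of contig 000022F and 1 model of contig 000125F lie farthest above the line, at 17.3 against 0.899, 82.6 against 4.19 and 189 against 11.7, and model 1 of contig 000663F lies farthest below it, at 7.42 against 39.1.

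In the prepupa, models of contigs 000663F, 000355F and 000014F were among the members higher in hindwings, and models of contigs 000094F and 000022F among those lower there. The edgeR quasi-likelihood test (Benjamini-Hochberg adjusted p below 0.05 over 13282 models, two-sided) called 22 of the 73 members between prepupal hindwings and forewings, 18 higher and 4 lower in hindwings. Over all models tested 10.3% were called, 4.26% higher and 6.05% lower, and among the 6484 models that met the level and balance conditions of the rule 13.1% were called, 6.52% higher and 6.59% lower. The members' share was 30.1%, with 24.7% higher and 5.48% lower, but it cannot be read against these backgrounds. Of the 18 higher in hindwings, 12 met the rule only with hindwing libraries, 5 met it in each wing and 1 in neither wing alone. Of the 4 lower in hindwings, 3 met it only with hindwing libraries and 1 in each wing. The members' median log2 fold change was 0.57 and that over all models 0.04. With DESeq2 size factors the calls were again 18 and 4, where 10.5% of all models were called, 3.41% higher and 7.08% lower, and the medians were 0.50 over members and −0.02 over all models. With the replicate number as a block, since hindwing and forewing of a number behaved as pairs, 52 members were called, 40 higher and 12 lower, where 30.9% of all models were, 14.6% higher and 16.3% lower.

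Apart from 000025F:951192-952313, which differed between the wings at every stage, the highest prepupal hindwing excess was that of 000663F:59929-61855. It held 656, 425 and 368 normalised counts in hindwings and 64.3, 61.3 and 56.5 in forewings, with no overlap (log2 fold change 3.05 ± 0.38, SE; edgeR adjusted p = 4.26e-05). The model 000355F:191473-193397 held 242, 151 and 345 in hindwings and 36.7, 14.7 and 53.1 in forewings (2.91 ± 0.55; edgeR adjusted p = 0.00178). In both, the 5th instar values of the wings overlapped, at 336, 331 and 212 in hindwings and 266, 253 and 158 in forewings on contig 000663F and at 121, 111 and 224 in hindwings and 90.1, 80.7 and 150.1 in forewings on contig 000355F. The model 000014F:1675881-1678464 had a log2 fold change of 2.56 ± 0.58 (edgeR adjusted p = 0.00719) from the prepupal values given above.

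Next by size was 000054F:1607519-1609185, whose span overlaps another model so that reads may have been divided between them. It held 254, 157 and 361 in prepupal hindwings and 45.9, 15.9 and 82.2 in prepupal forewings (2.501 ± 0.59; edgeR adjusted p = 0.00877), against 54.1, 50.8 and 59.5 in hindwings and 56.3, 53.0 and 52.5 in forewings in the 5th instar. Its call ended without prepupal hindwing replicate 3 (edgeR adjusted p = 0.0506), and without forewing replicate 3 its log2 fold change was 3.18. The remaining 13 members called higher in hindwings had log2 fold changes from 0.91 to 2.45 and edgeR adjusted p of at most 0.0379. Among these, single libraries ended the calls of 000073F:1380947-1386945, 000200F:517617-526688 and 000415F:306036-308509. With the replicate block these and 000054F:1607519-1609185 were called (edgeR adjusted p of at most 0.00014).

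The 4 members lower in prepupal hindwings all had a higher mean normalised count in the prepupa than in the 5th instar. This direction depends on the scaling of the stages. The model 000094F:1118847-1131216 held 140.4, 94.1 and 118 in hindwings and 1212, 1106 and 2696 in forewings (log2 fold change −3.77 ± 0.48; edgeR adjusted p = 5.36e-05), after 180.3, 229 and 80.4 in hindwings and 312, 414 and 178 in forewings in the 5th instar. As normalised counts its forewing values stood above the larval level and its hindwing values did not. A pair of neighbours on contig 000022F showed the same. The model 000022F:1361507-1372231 held 677, 679 and 374 in prepupal hindwings and 7741, 7056 and 5739 in forewings (−3.50 ± 0.48; edgeR adjusted p = 0.000126), and 000022F:1347903-1348205 held 112, 98.97 and 70.1 in hindwings and 1120.0, 1110.0 and 902 in forewings (−3.41 ± 0.42; edgeR adjusted p = 4.30e-05). The last of the 4, 000051F:659222-670214, held 266, 353 and 299 in hindwings and 957, 1782 and 1226 in forewings (−2.05 ± 0.63; edgeR adjusted p = 0.0431). It was no longer called without any 1 of the 6 prepupal libraries (edgeR adjusted p between 0.0612 and 0.134). With the replicate block it was called (−2.02 ± 0.17, edgeR adjusted p = 3.57e-06), where 16.3% of all models were called lower.

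**Figure D3:**
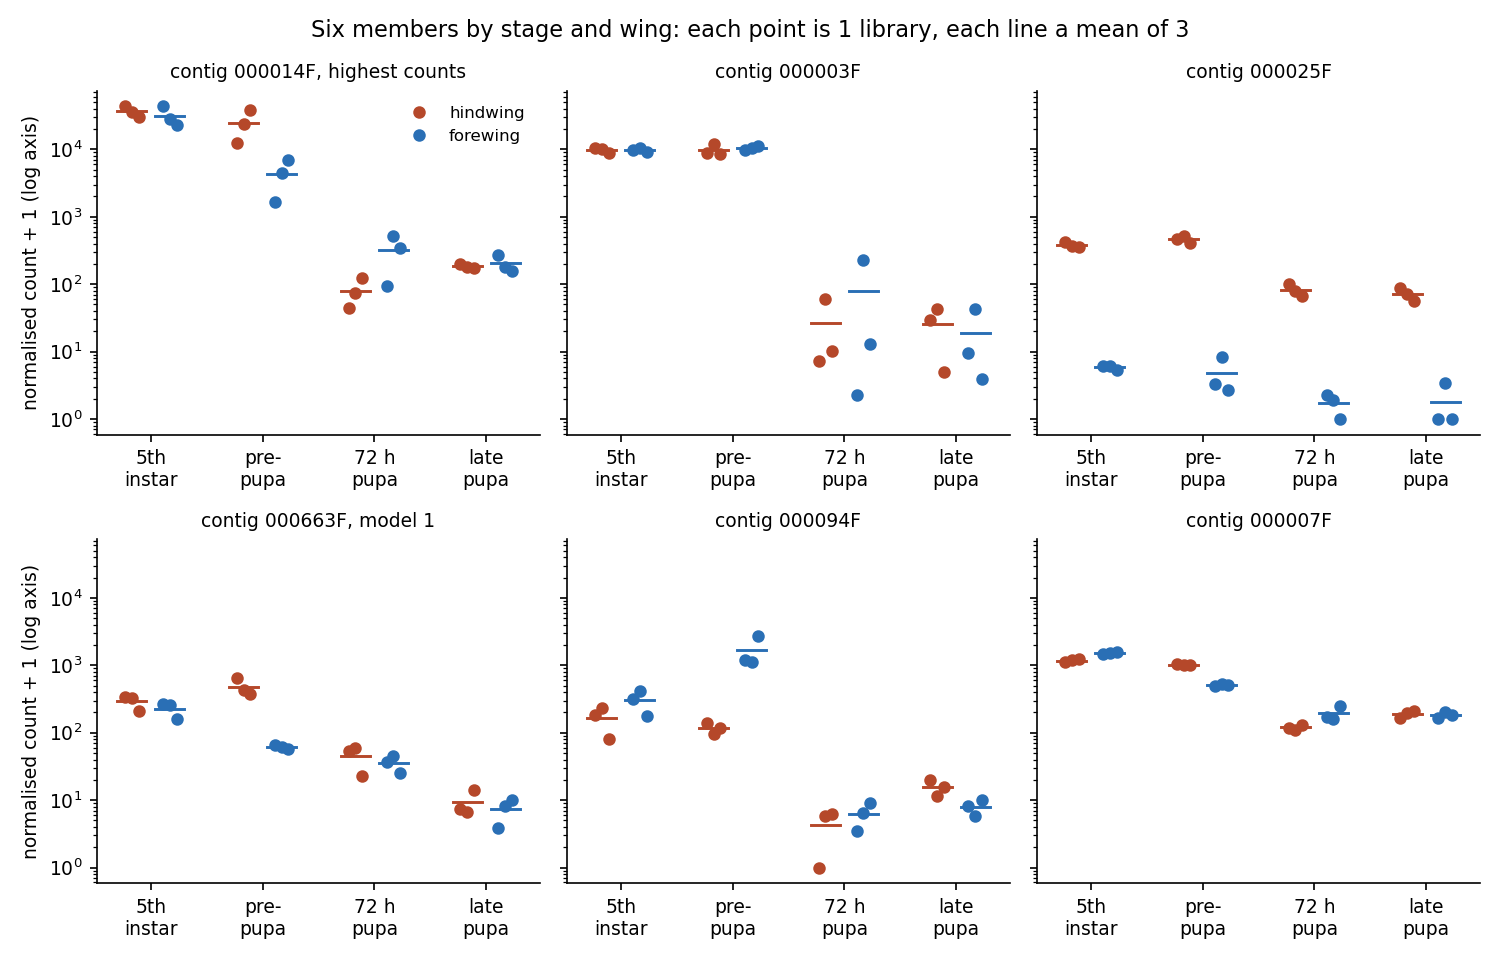
Normalised count + 1 (log axis) of 6 members at the 4 stages, hindwing in red left of forewing in blue, with 1 point per library and a line at the mean of 3. The model of contig 000014F and model 1 of contig 000663F are lower in prepupal forewings, that of contig 000094F is higher there, that of contig 000003F is level, that of contig 000025F is low in forewings at all 4 stages, and that of contig 000007F crosses from forewing-high to hindwing-high between the 5th instar and the prepupa.

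Whether the wing difference itself changed from the 5th instar to the prepupa was tested as an interaction. It was called in 10 members, 7 towards hindwing and 3 towards forewing, where 3.22% of all models were called, 1.63% and 1.59%, and 4.5% of those meeting the level and balance conditions, 2.82% and 1.68%. All 10 met the rule with hindwing libraries and not with forewing libraries alone, so this count is not read against the background either. With the replicate block 26 members were called, 22 and 4, where 18% of all models were, 8.85% and 9.12%. The largest change towards hindwing was in 000663F:59929-61855 (difference of log2 fold changes 2.68 ± 0.50; edgeR adjusted p = 0.00483), followed by the neighbours 000176F:781346-789168 (2.32 ± 0.41; edgeR adjusted p = 0.00371) and 000176F:792897-801295 (1.99 ± 0.37; edgeR adjusted p = 0.00483). In the prepupa 000176F:781346-789168 held 444, 625 and 587 in hindwings and 94.1, 180.3 and 109.5 in forewings, against 420.4, 378 and 367 in hindwings and 455, 440.3 and 403 in forewings in the 5th instar. Its neighbour held 133, 120.3 and 183 in hindwings and 39.02, 38.0 and 46.2 in forewings in the prepupa, against 127, 119.7 and 88.3 in hindwings and 119, 116 and 125 in forewings in the 5th instar. As normalised counts, the forewing means of this pair were lower in the prepupa than in the 5th instar and the hindwing means were not. This depends on the scaling. As shares of all counts in a library, the hindwing means of both models were lower in the prepupa too.

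Replicates lay close together in 000007F:2905681-2914521, which stands just inside the fold limit of the rule. Its prepupal hindwings held 1028, 1004 and 1025 and its prepupal forewings 498, 520.1 and 517, while its 5th instar hindwings held 1114, 1188 and 1218 and forewings 1482, 1529.6 and 1590.0. The order of the wings was thus reversed between the stages without overlap at either, and the interaction was 1.45 ± 0.21 (edgeR adjusted p = 0.000935). The models 000013F:1917634-1922761, 000076F:792252-796372 and 000840F:45772-47301 had interactions of 1.86 ± 0.30, 1.68 ± 0.31 and 1.66 ± 0.34, with higher forewing than hindwing means in the 5th instar and the opposite in the prepupa. Towards forewing the interactions were −3.11 ± 0.63 in 000022F:1361507-1372231, −3.07 ± 0.56 in 000022F:1347903-1348205 and −2.88 ± 0.62 in 000094F:1118847-1131216.

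**Figure D4:**
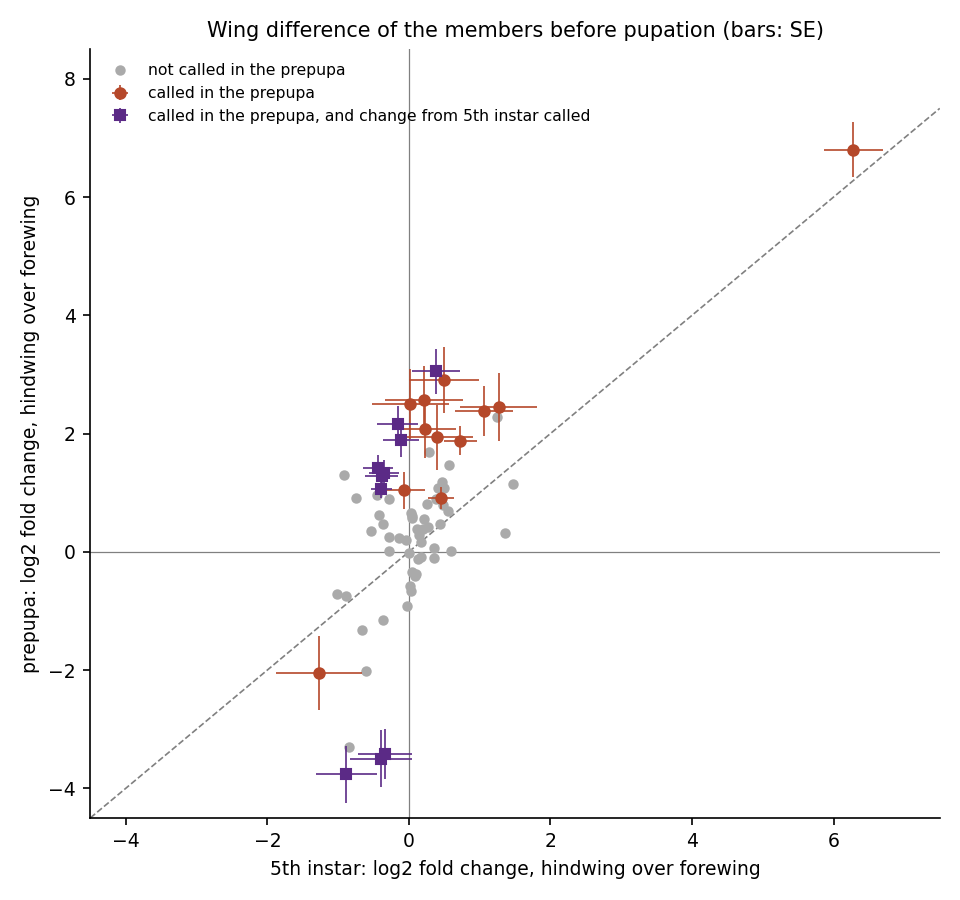
Log2 fold change of hindwing over forewing in the prepupa (vertical) against the 5th instar (horizontal) for the 73 members, with SE bars for those called in the prepupa and a dashed line where both are equal. Of the 22 called, 18 lie above 0 and 4 below, squares mark the 10 whose change between the stages was called, and the point at 6.28 and 6.80 is the model of contig 000025F.

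After pupation few wing differences were called. At 72 h 1 member was called, 000025F:951192-952313, as was 0.00753% of all models, and in the late pupa 2 were called, 000025F:951192-952313 and 000017F:2036946-2042642, where 0.0301% of all models were, 0.00753% higher and 0.0226% lower. At an unadjusted p below 0.05 there were 16 members at 72 h and 9 in the late pupa, where 3.85% and 1.91% of all models were. The direction at 72 h was nevertheless uneven. The log2 fold change lay below 0, hindwing lower, in 57 of the 73 members, with a median of −0.52 against −0.03 over all models. It lay above 0 in 21.9% of members, 44.8% of all models and 45.5% of those meeting the level and balance conditions. The rule used the 72 h levels, and 30 members met it in hindwings only, so the members' tilt is not read against these shares. This tilt rested in part on forewing replicate 2 of 72 h, without which the median was −0.14. With the replicate block 8 members were called lower and 1 higher in 72 h hindwings, where 2.7% of all models were called, 1.15% lower and 1.54% higher. Of the 8, all but 000364F:107398-117651 and 000242F:591773-603024 met the rule in hindwings only, so this count is not read against that background. The 8 included 000014F:1675881-1678464, 000007F:2905681-2914521 and 000013F:1917634-1922761, with blocked log2 fold changes of −1.84 ± 0.28, −0.72 ± 0.11 and −0.78 ± 0.14 (edgeR adjusted p = 0.00478, 0.004 and 0.0101). Of the 8, 5 had been called in the prepupa, and all 5 met the rule in hindwings only. Of these, 4 had been higher in prepupal hindwings, while 000022F:1361507-1372231 was lower in hindwings at both stages (−3.50 ± 0.48 in the prepupa, and −1.55 ± 0.28 with the block at 72 h).

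The late pupal call of 000017F:2036946-2042642 was lower in hindwings, at 44.6, 54.0 and 64.1 against 483, 188 and 162 in forewings (log2 fold change −2.36 ± 0.37; edgeR adjusted p = 0.0149). The wings did not overlap, and forewing replicate 1 stood far above the other 2. The call ended in a fit of the late pupal groups alone (adjusted p = 0.686) and without any of the 3 hindwings or forewing replicate 1 (adjusted p from 0.0664 to 0.197). Without forewing replicate 1 the log2 fold change was −1.69, and the ratio of the lower mean before to the higher mean after pupation was 16.1 in place of 9.96. With the replicate block 4 members were called in the late pupa, 1 higher and 3 lower, where 0.459% of all models were, 0.188% higher and 0.271% lower. The 3 lower included 000017F:2036946-2042642 (−2.20 ± 0.29 with the block, edgeR adjusted p = 0.00615).

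In the 5th instar 1 member was called between the wings, 000025F:951192-952313, which met the rule with hindwing libraries and not with forewing libraries alone, where 0.0376% of all models were, 0.0226% higher and 0.0151% lower. It held 415, 369.7 and 357 in hindwings and 5.05, 5.07 and 4.33 in forewings (6.28 ± 0.42; edgeR adjusted p = 1.06e-07). Prepupal hindwings held 466, 511 and 411 and forewings 2.30, 7.36 and 1.71. The 72 h hindwings held 101, 79.3 and 65.0 and forewings 1.26, 0.899 and 0, and late pupal hindwings held 85.4, 71.2 and 56.1 and forewings 0, 2.43 and 0. Forewings were low at every stage, so the higher level before pupation was that of hindwings in this model. At 72 h the rate in hindwings was 115 times that in forewings, with a 95% counting interval of 31.4 to 959.6 on 2 forewing counts. Its late pupal log2 fold change of 6.29 ± 0.56 was 9.29 without forewing replicate 2 and 5.64 without replicate 3, and its prepupal one of 6.80 ± 0.47 was 7.88 without forewing replicate 2. The test of a change in its wing difference from the 5th instar to the prepupa gave 0.52 ± 0.62 (edgeR adjusted p = 0.872). Its calls at the pupal stages ended in fits of the groups compared alone (edgeR adjusted p = 0.222 and 0.129). With the replicate block 10 members were called in the 5th instar, 5 higher and 5 lower in hindwings, where 0.986% of all models were, 0.497% higher and 0.489% lower.

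The share left after pupation was smaller in hindwings. The higher mean after pupation was 13.04% of the lower mean before it in hindwings and 18.3% in forewings, as medians over the 73 members. With hindwing libraries alone 68 of the 73 met the rule and with forewing libraries alone 40. Of the 33 that missed it in forewings, the fold condition failed in 24, the balance of 5th instar and prepupa in 11 and the level in 9, with some failing more than one. All 6 hindwing libraries before pupation stood above all 6 after it in 68 members, where 8.21% of all models tested did, and all 6 forewing libraries in 60, where 5.86% did. These are descriptions of the values that chose the members.

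The members lay on 58 contigs, and a few stood side by side. The longest run was of 4 neighbours, models 79 to 82 of the 145 on contig 000022F, over a stretch of 94272 bases. The first and second of the run, 000022F:1347903-1348205 and 000022F:1361507-1372231, were those higher in prepupal forewings, with stage means of 215, 569, 10.2 and 3.91 and of 1264, 3711, 56.2 and 27.8 from the 5th instar to the late pupa. The other 2, 000022F:1404924-1410193 and 000022F:1419969-1442174, had means of 203, 108, 0.899 and 17.3 and of 831, 453, 4.19 and 82.6. In normalised counts the run thus holds 2 pairs. The first was highest in the prepupa and still lower in the late pupa than at 72 h. The second was highest in the 5th instar and lowest at 72 h.

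At 72 h 000022F:1404924-1410193 held no count in the 3 hindwings and in forewings of replicates 1 and 3, and 5.40 normalised counts in forewing replicate 2. In the late pupa it held 10.2, 14.9 and 9.35 in hindwings and 18.7, 29.1 and 21.7 in forewings. The 5th instar rate was 165 times that at 72 h (95% counting interval 75.9 to 451, 6 counts at 72 h) and 11.4 times that in the late pupa (9.23 to 14.3). The models on both sides of the run behaved otherwise. Model 76 of the contig stayed between 129 and 186 at all stages, models 77 and 78 were under 1 throughout, and models 83 to 85 stood higher at both pupal stages than in the 5th instar. A further member, model 96 of the contig, 000022F:1915135-1930830, had a ratio of 4.91.

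**Figure D5:**
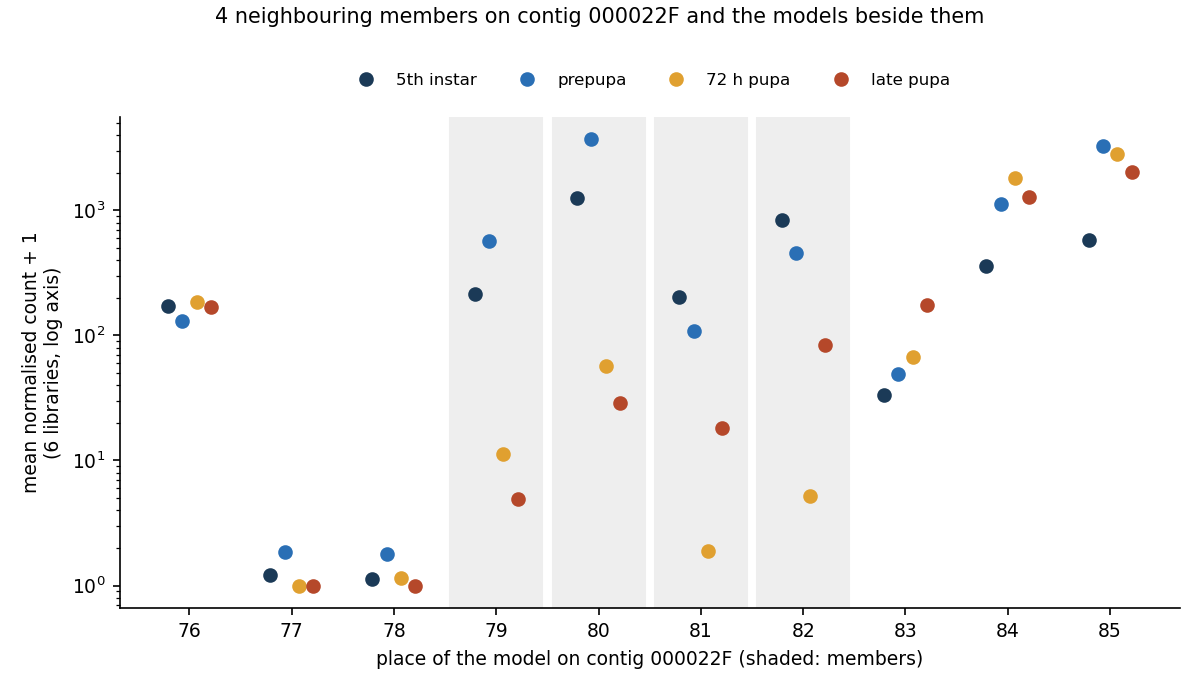
Mean normalised count + 1 over 6 libraries (log axis) at the 4 stages for models 76 to 85 of contig 000022F in order, with the 4 members shaded. The first and second shaded models are highest in the prepupa, the other 2 are highest in the 5th instar and lowest at 72 h, and models 83 to 85 are lowest in the 5th instar.

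Besides the pair on contig 000176F, members stood next to each other on contigs 000355F and 000663F, which were picked out after their values were seen. Contig 000663F carries 2 models in all and both are members. Its second model, 000663F:103677-104108, held 312, 205 and 78.5 in prepupal hindwings and 106, 77.3 and 44.5 in forewings. Its wing difference was not called without the replicate block (log2 fold change 1.46 ± 0.51; edgeR adjusted p = 0.0773). The other model of the pair on contig 000355F, 000355F:147079-147552, held 152, 139 and 115 in hindwings and 71.1, 51.5 and 65.0 in forewings. It was not called either without the block (1.19 ± 0.41; edgeR adjusted p = 0.0778). With the block both were called higher in prepupal hindwings, where 14.6% of all models were. Their blocked log2 fold changes were 1.38 ± 0.22 and 1.19 ± 0.22 (edgeR adjusted p = 0.000436 and 0.00119). In both pairs each model had a higher mean in prepupal hindwings, without overlap between the wings in 000355F:147079-147552. Across the 73, spans ran from 303 to 22206 bases with a median of 6897, against 7341 for the 7276 models at a lower mean of at least 50 before pupation. The spans of 8 members overlap another model, and their counts may be divided or shared.

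The fold limit cuts through a continuous range. Just inside it lay 000007F:2905681-2914521, 000002F:2534278-2546250 and 000040F:2408564-2415303, at ratios of 4.12, 4.12 and 4.13, and just outside it 000034F:1256680-1257469, 000017F:2062067-2071870 and 000104F:1242465-1244610, at 3.95, 3.94 and 3.89. The ratio of 000040F:2408564-2415303 was 2.58 without prepupal hindwing replicate 2. When each of the 24 libraries was left out in turn and when both 72 h libraries numbered 3 were, 50 of the 73 met the rule each time.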

How the data were processed

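Counts in 24 wing libraries were analysed. The authors deposited 1 table of raw counts per model, not normalised, and all of its library columns were used. TopHat, bedtools and DESeq2 are listed in the submitters' processing notes, without roles or versions. The build, the annotation and whether strand was used were not given in the sources used here. Columns for 72 h are headed d3 and were matched by wing and replicate number. The other 14 libraries, labelled for annotation, were not analysed here, and the labels of 4 of them contradict each other.

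Levels are counts divided by DESeq median-of-ratios size factors, from the 10830 models above 0 in every library. Wing differences were tested with edgeR 4.0.16 (R 4.3.3), with filterByExpr (minimum count 10, minimum total 15), TMM factors, and glmQLFit and glmQLFTest on a mean for each of the 8 groups over all 24 libraries. Standard errors are the absolute log2 fold change over the square root of F. The common biological coefficient of variation was 38.7%. The code was tested on simulated data for the prepupal comparison without the replicate block. The simulated libraries were independent, with no pairing of the wings, so that test does not measure error rates in these data. Depth and scaling are given with the results.

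The alternatives were DESeq2 size factors, no filter on low counts, the DESeq2 1.42.0 Wald test, fits of the groups compared alone, a replicate block and libraries left out. Hindwing and forewing of the same stage and number deviated together from their group means in all 12 pairs (r across models from 0.517 to 0.765), so the numbers were taken to pair the wings. Between different numbers r was at most −0.138. Deviations from a group mean sum to 0, so positive values for the same number push those between different numbers below 0. No 2 libraries agreed within sampling noise (chi-square per degree of freedom of at least 29.4 within groups).

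Members, lists and rules were chosen with earlier results of these data known. Named models are the 6 highest by the lower mean before pupation and by ratio, up to 5 called in each direction per stage, up to 3 for the change of the wing difference, those nearest the fold limit, runs of neighbours, and the 3 at each end of the stage ratios. Lists of marker and pathway genes need gene names and could not be used.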

Additional observations from a re-analysis of the deposited data

Results flagged for a closer look

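In 10 members the difference between hindwing and forewing changed from the 5th instar to the prepupa, by a test of the change itself (edgeR quasi-likelihood interaction, adjusted p below 0.05 over all models). The change is given as the prepupal minus the 5th instar log2 fold change of hindwing over forewing. Towards hindwing it was 2.68 in 000663F:59929-61855, 2.32 in 000176F:781346-789168, 1.99 in 000176F:792897-801295, 1.86 in 000013F:1917634-1922761, 1.68 in 000076F:792252-796372, 1.66 in 000840F:45772-47301 and 1.45 in 000007F:2905681-2914521. Towards forewing it was −2.88 in 000094F:1118847-1131216, −3.07 in 000022F:1347903-1348205 and −3.11 in 000022F:1361507-1372231. The edgeR adjusted p of these lay between 0.000935 and 0.0119. Each of the 10 remained called when any library of these 4 groups was left out. All 10 met the rule with hindwing libraries and not with forewing libraries alone. What lies behind these changes was not tested.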

How the results depend on the processing

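The number of members was 75 with TMM factors, of which 70 were among the 73. It was 133 at a fold limit of 3 and 42 at 6, 84 at a level of 30 and 55 at 100, 42 with a balance of 2-fold and 82 with 8-fold, 131 with hindwing and 44 with forewing libraries alone, 77 without both 72 h libraries numbered 3, and between 67 and 79 with each library left out. With library totals it was 71.

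Calls between the wings changed most with the replicate block, which pairs hindwing and forewing: it gave 10 members for 5th instar, 52 for prepupal, 9 for 72 h and 4 for late pupal wings, and 26 for the change between the first stages. The DESeq2 Wald test gave 2, 33, 2, 3 and 16, where 0.294%, 14.2%, 0.173%, 0.151% and 6.63% of all models were called. Fits of the groups compared alone gave 1, 31, 0, 0 and 17, where 0.00852%, 12.2%, 0%, 0% and 6.69% of models were called. They tested 44 members at 72 h and 45 late in the pupa, of which 9 at each stage had an unadjusted p below 0.05, as had 0.935% and 2.42% of models. Leaving out each library gave 1, 19 to 21, 1 to 3, 1 to 2, and 10 to 11. Of 492 alternative values of members called, 465 kept their call, 27 lost it and none changed sign. After pupation, low counts limit the precision.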

Other observations

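In some members a replicate number stood apart in both wings. In 000034F:1194879-1196704 the 5th instar libraries of number 2 held 267 normalised counts in hindwing and 168 in forewing, and those of number 3 held 0.566 in hindwing and 0 in forewing. In 000125F:443051-458035 the late pupal libraries of number 2 held 23.0 in hindwing and 32.8 in forewing, against 208 to 340.2 in the other 4. In 000058F:161059-166706 the prepupal hindwing of number 3 held 72.2, against 8.73 and 13.4 in the other hindwings, and the prepupal forewing of number 3 held 948, against 15.9 and 23.0. In 000051F:659222-670214 the 5th instar libraries of number 1 held 89.1 in hindwing and 246 in forewing, against 270 to 715 in the others. The median coefficient of variation over members within a group was 14.9% and 15.9% in hindwings and forewings of 5th instar larvae, 23.9% and 25.8% in prepupae, 50.9% and 51.0% in 72 h pupae, and 33.2% and 45.9% in late pupae.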
